A study of Triticum aestivum with 14 samples.

Results

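Accessible chromatin regions (ACRs) of the axillary bud were compared with those of the shoot apex of winter wheat after vernalization. An ACR that overlapped an ACR of the other vernalized list by at least 1 bp was counted as common. The remaining ACRs were called bud-side when they stood in the bud list and apex-side when they stood in the apex list. The vernalized axillary bud list held 174089 ACRs and the vernalized shoot apex list 154639, together 328728 of the 892288 ACRs in the 6 lists of the series. Of the bud list 56610 ACRs were bud-side, and of the apex list 27220 ACRs were apex-side.

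The series measured chromatin accessibility by ATAC-seq in leaf, axillary bud and shoot apex of wheat (Triticum aestivum) cultivar AK58. Vernalized plants had spent 1 month in the cold at 4°C with 16 h of light and 8 h of darkness, followed by 1 day in a greenhouse. Unvernalized plants were sampled 2 weeks after germination, grown at 22°C by day and 19°C by night with the same hours of light. There were 7 groups of 2 samples (6 of tissue and condition, and input DNA), and each of the 6 tissue groups had 1 ACR list. Buds and apices were dissected from seedlings, so a list stands for all cell types of a dissected piece and not for 1 cell type. The sources do not state whether a list was made from 1 replicate or from both. No comparison between the lists therefore has a replicate error, and no p-value is given. Intervals in brackets are 95% Wilson intervals for the error of counting alone. ACRs that lie side by side are not independent, so these intervals may be too narrow.

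An axillary bud is the side meristem in the axil of a leaf and grows out into a tiller, the side shoot of a grass. The shoot apex holds the meristem at the tip of the main stem, which makes leaves until it turns to forming the ear. Both are shoot meristems wrapped in young leaves. Vernalization is the long exposure to cold that winter wheat needs before it can flower. In ATAC-seq a transposase cuts and tags DNA that is free of tightly packed nucleosomes, and stretches rich in such cuts are called ACRs. They commonly hold promoters, enhancers and other regulatory DNA. Bread wheat is a hexaploid whose 3 sub-genomes, A, B and D, each carry a related copy of most genes, and its genes lie mostly towards the chromosome ends.

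The lists hold positions and no gene names, so the tissue labels could not be set against marker genes. They were set against one another with the Jaccard index, the length in both lists divided by the length in either. The vernalized axillary bud list was nearest to the unvernalized axillary bud list, with an index of 0.602. The vernalized shoot apex list was nearest to the vernalized axillary bud list, at 0.529, then to the unvernalized axillary bud list, at 0.467. Its index with the unvernalized shoot apex list was 0.422, and it was nearer to the vernalized bud than to its own unvernalized list on 21 of 21 chromosomes. The unvernalized shoot apex list, too, was nearer to the vernalized axillary bud list, at 0.437, than to the vernalized shoot apex list. The label of neither shoot apex list was therefore borne out by likeness to the other list of that tissue. All common, bud-side and apex-side classes rest on the vernalized apex list and carry this limit, as does every comparison with the unvernalized apex list.

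The lists also differed in how their edges were made. The ACRs were built from 150 bp bins placed every 100 bp, and a width made of whole bins was found in 95.6% of vernalized bud ACRs and in 77.6% of vernalized apex ACRs. The same share was 94.6% in unvernalized bud and 12.9% in unvernalized apex. Per the read statistics of the study, both vernalized bud libraries were sequenced several times more deeply than both vernalized apex libraries. Depth and tissue cannot be told apart in these lists, and the part of depth and of bin edges in the results that follow was not tested.

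How alike were the tissues after the cold? Most ACRs of either tissue were also called in the other. In the bud list 117479 ACRs were common, 67.5% (67.3 to 67.7), and 32.5% were bud-side. In the apex list 127419 ACRs were common, 82.4% (82.2 to 82.6), and 17.6% were apex-side. Bud-side ACRs outnumbered apex-side ACRs 2.08 to 1. After overlapping ACRs were merged, 197721 regions remained, of which 113891 (57.6%) were common, 56610 bud-side and 27220 apex-side. The numbers depended on the overlap rule. When 2 ACRs had to cover at least 50% of each other, 90797 ACRs were bud-side and 71347 apex-side. With only ACRs of at least 500 bp in both lists, 31365 were bud-side and 11843 apex-side. Bud-side ACRs stayed the more numerous in each of these settings.

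In length the common part was 86.8 Mb, which was 60.6% of the 143.3 Mb in the bud list and 80.6% of the 107.7 Mb in the apex list. The bud list covered 56.5 Mb that the apex list did not, and 33.4 Mb of this (59.1%) lay in common ACRs. This was at their flanks or in gaps between ACRs of the other list that they bridged. The remaining 23.1 Mb lay in bud-side ACRs. The apex list covered 20.9 Mb that the bud list did not, 11.6 Mb (55.3%) in common ACRs and 9.34 Mb in apex-side ACRs. More than 50% of the length that set the tissues apart was thus part of a common ACR and not an ACR of its own.

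Most common ACRs stood in one-to-one pairs, and the midpoints of these pairs mostly lay close together. Not every common ACR was well matched, since a mutual cover of at least 50% left 47.8% of the bud list and 53.9% of the apex list common. Among 131007 overlapping pairs, 99741 were one-to-one, holding 84.9% of the common bud ACRs and 78.3% of the common apex ACRs. Within these pairs the midpoints were a median of 79 bp apart, and in 90% of pairs at most 281 bp apart. The narrower ACR lay wholly inside the wider one in 50714 pairs (50.8%). The bud ACR was the wider in 57825 pairs (58.0%), the apex ACR in 26344 (26.4%), and 15572 pairs were of equal width. The median width was 650 bp for the bud member and 550 bp for the apex member, and the median ratio of bud over apex width was 1.12 (quartiles 0.946 and 1.53). Only 376 pairs had the same start and the same end. Bud ACRs also bridged gaps in the apex list more often than the reverse. There were 11491 bud ACRs that held at least 2 apex ACRs, up to 6, against 3476 apex ACRs that held at least 2 bud ACRs, up to 5.

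Few ACRs stood near the edge of the 1 bp rule. An overlap of 50 bp or less was found in 489 common bud ACRs (0.416%) and in 556 common apex ACRs (0.436%). A gap of 50 bp or less to the other list was found in 446 bud-side ACRs (0.788%) and in 483 apex-side ACRs (1.77%). The median gap to the other list was 2650 bp for bud-side ACRs and 2092 bp for apex-side ACRs. A gap above 100 kb was found for 5003 bud-side ACRs (8.84%) and 1669 apex-side ACRs (6.13%). The vernalized bud list held 12.4 ACRs per Mb and the vernalized apex list 11.0. At such densities an ACR of the other list within 100 kb is common at any place, and no base for these gaps was computed.

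The side classes consisted of narrow ACRs. Bud-side ACRs had a median width of 350 bp, and the middle 90% lay between 250 and 850 bp. Apex-side ACRs had a median of 250 bp, and their middle 90% lay between 215 and 650 bp. The medians of common ACRs were 750 bp in the bud list and 550 bp in the apex list. ACRs of 1 kb or more made up 3.49% of bud-side ACRs (1974) and 1.06% of apex-side ACRs (288), beside 35.9% of common bud ACRs and 23.6% of common apex ACRs. The widest bud-side ACR spanned 5950 bp and the widest apex-side ACR 2750 bp. Widths of exactly 250 bp made up 44.2% of bud-side and 38.2% of apex-side ACRs. Widths of whole bins made up 95.5% of bud-side ACRs and 68.8% of apex-side ACRs.

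**Figure D1:**
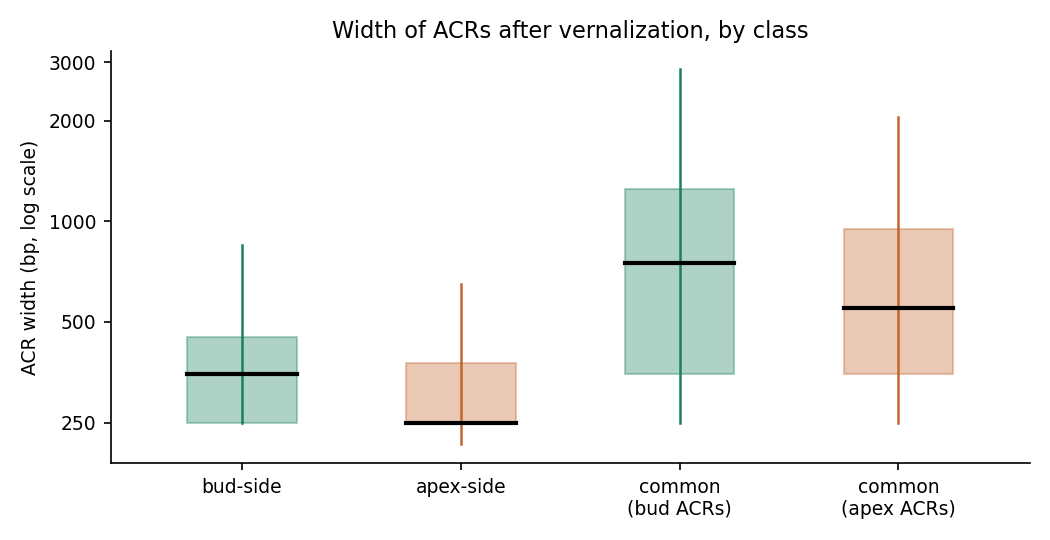
Width of ACRs after vernalization in bp, on a log axis, for bud-side, apex-side and common ACRs, each box spanning the quartiles with the median as a line and whiskers at the 5th and 95th percentiles. The side classes sit low, with medians of 350 bp (bud-side) and 250 bp (apex-side), against 750 bp for common bud ACRs and 550 bp for common apex ACRs.

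The share of common ACRs grew with width in both lists. Among ACRs of 201 to 300 bp it was 36.6% in the bud list and 61.9% in the apex list. Among ACRs of 501 to 750 bp it was 72.9% in the bud list and 90.8% in the apex list. Among those of 1001 to 1500 bp it was 92.7% in the bud list and 98.6% in the apex list. Of the ACRs wider than 3 kb, 10 of 4964 in the bud list were bud-side and 0 of 2118 in the apex list were apex-side, a count that allows a share of up to 0.142% when 3 counts of the total are taken as the limit. The apex list had the higher common share in each of the 9 width classes. These classes match the width of the ACR itself but not the size of the list it is set against. With the bud list reduced to its widest ACRs, as many as the apex list has, the common share was 71.5% for bud and 78.3% for apex. The part of width and of list size in the difference was not tested.

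The 3 sub-genomes held nearly equal numbers of each class. Sub-genome A held 33.8%, B 31.9% and D 34.2% of bud-side ACRs. For apex-side ACRs A held 32.0%, B 33.4% and D 34.6%. Common bud ACRs were split as 33.8% in A, 31.9% in B and 34.3% in D, which for A, B and D alike was within 0.1 percentage points of the bud-side split. The common share of the bud list lay between 67.4% and 67.5% in all 3 sub-genomes, and that of the apex list was 83.2% in A, 81.6% in B and 82.4% in D. Because D is the shortest sub-genome, it had the highest density, with 4.91 bud-side ACRs per Mb beside 3.88 in A and 3.49 in B. Apex-side density was 2.38 per Mb in D and 1.76 in both A and B.

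Single chromosomes departed little from the genome. The common share of the bud list ran between 64.8% on chromosome 4A and 69.5% on 1B, and that of the apex list between 80.5% on 5B and 84.7% on 6A. The share was higher in the apex list on 21 of 21 chromosomes. The ratio of bud-side to apex-side ACRs was lowest on 1B, at 1.72, and highest on 4A, at 2.70. By homoeologous group, the set of A, B and D copies of a chromosome, the ratio lay between 1.82 (group 5) and 2.31 (group 4).

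The bud and the apex were more alike after the cold than before it. Their Jaccard index was 0.529 in the vernalized lists and 0.369 in the unvernalized lists, a difference of 0.160. With each ACR replaced by 250 bp around its midpoint the difference was 0.0990. The vernalized plants were also older than the unvernalized ones, and cold and age cannot be told apart here. Over the 21 chromosomes the index lay between 0.511 (7A) and 0.544 (2A) after vernalization and between 0.353 and 0.402 before it, so the ranges did not overlap. Unshared ACRs made up 32.5% of the bud list and 17.6% of the apex list after vernalization, against 51.3% (90008 of 175599) and 23.5% (31136 of 132696) before it. The vernalized leaf list was far from both, with an index of 0.212 with the vernalized bud and 0.203 with the vernalized apex. Its index with the unvernalized leaf list was 0.316. The unvernalized leaf list was nearer, at 0.362 with the vernalized bud and 0.340 with the vernalized apex. These indices share lists with one another, and the bin edges of the unvernalized apex list differed most from those of the other shoot lists.

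**Figure D2:**
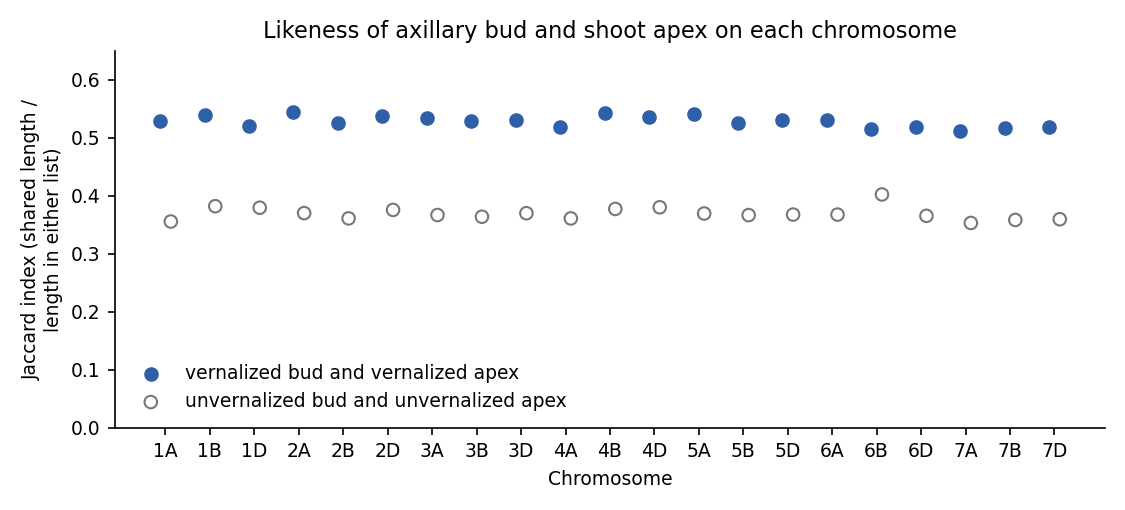
Jaccard index (length in both lists over length in either) for each of the 21 chromosomes, for vernalized bud with vernalized apex (filled points) and unvernalized bud with unvernalized apex (open points). The vernalized pair lies between 0.511 and 0.544, above the unvernalized pair, which lies between 0.353 and 0.402, on every chromosome.

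Counted in 14074 windows of 1 Mb, the numbers of ACRs in the vernalized bud and vernalized apex lists had a Pearson correlation of 0.962 and a Spearman correlation of 0.950. In the unvernalized bud and apex the correlations were 0.881 and 0.872. The vernalized leaf list had a Pearson correlation of 0.796 with the vernalized bud and 0.805 with the vernalized apex. Windows are not replicates, and all lists share the same genome with its gene-rich ends, so these values are descriptive.

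Distal and interior position were measured from the nearest chromosome end. The outer zone, the last 10% of the length at each end and thus 20% of the genome, held 38.8% of bud-side ACRs (38.4 to 39.2) and 42.0% of apex-side ACRs (41.4 to 42.6). It held 40.2% of common bud ACRs and 40.6% of common apex ACRs. The outer zone thus held 1.94 times as many bud-side and 2.10 times as many apex-side ACRs as an even spread over the length would give, and apex-side ACRs lay slightly farther out than bud-side ACRs. The median distance to the end was 100.4 Mb for bud-side ACRs and 87.7 Mb for apex-side ACRs. The middle 30% of the chromosomes held 16.4% of bud-side ACRs and 14.7% of apex-side ACRs.

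The order of the side classes was not the same everywhere. On 15 of 21 chromosomes the outer share was lower in bud-side than in apex-side ACRs, and it was higher on the other 6 (1D, 2B, 3B, 3D, 5B and 6D). The outer share was 38.1% of bud-side and 44.2% of apex-side ACRs in A, 35.8% of bud-side and 39.7% of apex-side ACRs in B, and 42.3% of bud-side and 42.2% of apex-side ACRs in D. The counting intervals of the side classes lay apart in A and B and overlapped in D. The ratio of bud-side to apex-side ACRs was 1.98 in the 5% of length nearest the ends, 1.81 at 10 to 15%, 2.60 at 25 to 30% and 2.21 at the centre.

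The share of common ACRs was nearly even along the chromosome after the cold. In the bud list it was 67.7% in the 5% nearest the ends and 65.9% in the innermost 5%, with a highest value of 69.3% and a lowest of 64.4% between them. In the apex list it was 82.0% at the ends and 81.8% at the centre. Before vernalization the same shares had a steep slope. In the unvernalized bud list they were 64.4% at the ends and 38.2% at the centre, and in the unvernalized apex list 66.1% at the ends and 81.4% at the centre. The unvernalized lists thus parted in opposite directions along the chromosome, and the vernalized lists did not. A common share depends on the density of both lists. Unvernalized bud and apex had 24.7 and 28.1 ACRs per Mb at the ends, and 6.95 and 3.74 at the centre. Vernalized bud and apex had 28.9 and 26.2 at the ends, and 5.81 and 4.92 at the centre. The part of density in these slopes was not tested. The small slope left in the vernalized bud list, 1.80 percentage points (ends minus centre), was -3.76 points with ACRs of a fixed 250 bp and 6.25 points with ACRs of at least 500 bp, so its direction and size are not settled.

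**Figure D3:**
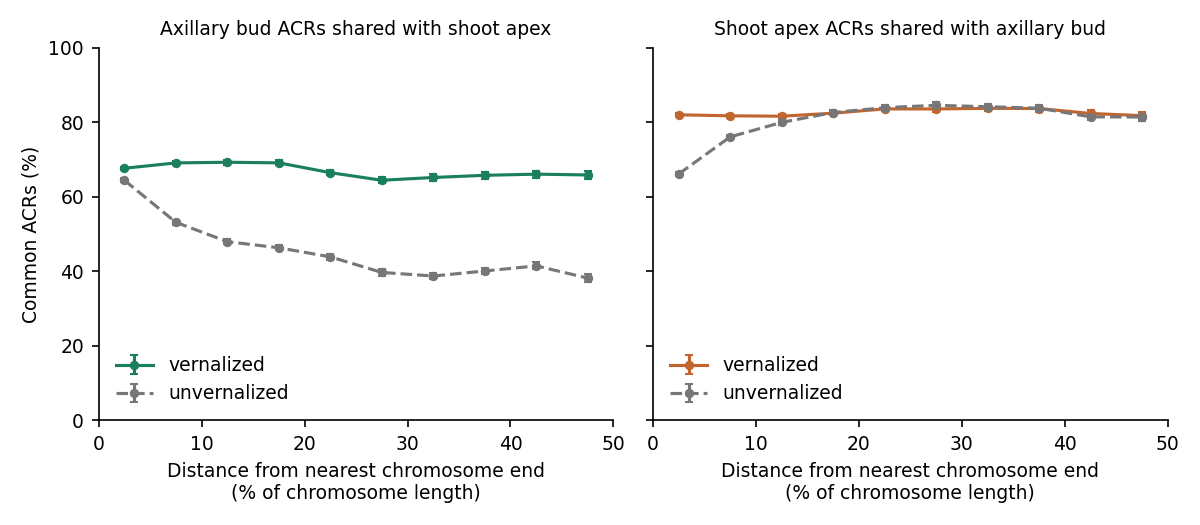
Share of common ACRs (%) against distance from the nearest chromosome end (% of chromosome length, in steps of 5%), for bud and apex lists after and before vernalization. After vernalization the lines are nearly flat (bud 67.7% at the ends and 65.9% at the centre, apex 82.0% at the ends and 81.8% at the centre), and before vernalization the bud line falls to 38.2% at the centre while the apex line is at 81.4% there.

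The outer shares of the whole lists, which describe the same densities, also lay closer to each other after the cold. The outer zone held 39.7% of the vernalized bud list and 40.8% of the vernalized apex list, a difference (bud minus apex) of -1.09 percentage points. Before vernalization it held 35.2% of the bud list and 46.8% of the apex list, a difference of -11.6 points. The outer share of the bud list was higher after vernalization on 21 of 21 chromosomes and that of the apex list was lower on 21 of 21.

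Bud-side ACRs, the more numerous class, lay at shorter distances from their own kind than apex-side ACRs did. Another bud-side ACR stood within 10 kb of 48.9% of bud-side ACRs (48.5 to 49.4), and another apex-side ACR within 10 kb of 31.2% of apex-side ACRs (30.6 to 31.7). The median gap to the nearest of the same class was 10790 bp for bud-side and 52835 bp for apex-side ACRs, beside 3107 bp for common bud ACRs and 2269 bp for common apex ACRs. These shares depend on the size of the class, and there were 2.08 times as many bud-side as apex-side ACRs. When sharing needed 50% of both ACRs, the shares with a neighbour within 10 kb were 64.3% for bud-side and 62.9% for apex-side ACRs.

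In the order of merged regions along a chromosome, the next region after a bud-side ACR was again bud-side in 31.8% of cases, beside a bud-side share of 28.6% among all regions. After an apex-side ACR it was again apex-side in 18.6% of cases, beside a share of 13.8%. Set beside the class share, the step was thus larger for apex-side ACRs, the reverse of the order by distance. Unbroken runs of at least 2 held 52.5% of bud-side and 32.9% of apex-side ACRs, beside 82.5% of common regions, which were 57.6% of all regions. Run shares and run numbers depend on the size of the class, and no base for them was computed. The differences between the classes in runs are therefore not read as clustering. Runs of at least 5 numbered 533 for bud-side and 69 for apex-side ACRs, and runs of at least 10 numbered 9 for bud-side and 4 for apex-side ACRs. The longest run had 17 bud-side ACRs and the longest of the other class 13 apex-side ACRs, so runs of 1 class held few ACRs. Their lengths differed widely, with 41485 bp for the run of 17 and 1049439 bp for an apex-side run of 13.

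The side classes were spread widely over the genome. Of the 1 Mb windows, 15.5% held no bud-side ACR and 34.6% held no apex-side ACR. Bud-side ACRs were the more numerous in 9173 windows (65.2%), apex-side ACRs in 2035 (14.5%), and the numbers were equal in 2866. The counts of bud-side and apex-side ACRs per window had a Pearson correlation of 0.560 and a Spearman correlation of 0.541, so windows with many of one tended to have many of the other. Each side class went more closely with the common ACRs of its own list. The Pearson correlation was 0.742 for bud-side with common bud ACRs and 0.701 for apex-side with common apex ACRs.

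Where had these regions been called before the cold? Common regions had mostly been called before. Of the 113891 common regions, 72708 (63.8%) overlapped ACRs of both the unvernalized bud and the unvernalized apex, 31777 (27.9%) of the bud only, 3336 (2.93%) of the apex only, and 6070 (5.33%) of neither. The common regions called in the bud only before the cold were thus 9.53 times as many as those called in the apex only. Over all unvernalized ACRs, those of the bud only were 2.89 times as many as those of the apex only, and the bud list covered 1.91 times the length of the apex list. The median width was 1150 bp for common regions called in both tissues before, 550 bp for bud only, 585 bp for apex only and 406 bp for neither.

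These routes lay in different parts of the chromosome. The outer zone held 42.6% of common regions called in both tissues before the cold and 28.5% (28.0 to 29.0) of those called in the bud only. It held 70.4% (68.8 to 71.9) of those called in the apex only and 51.5% of those called in neither. The order was that of the unvernalized lists themselves, in which the outer zone held 27.8% of all ACRs called in the bud only (25007 of 90008) and 60.3% of all called in the apex only (18778 of 31136). Even the common regions called in the bud only before were 1.43 times as frequent in the outer zone as an even spread would give.

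Bud-side ACRs had been called before the cold less often than the bud list as a whole. Of them, 63.0% (62.6 to 63.4) overlapped an ACR of the unvernalized bud, and 24.4% (24.0 to 24.7) one of the unvernalized apex. Over all vernalized bud ACRs the shares were 82.1% in the unvernalized bud and 52.2% in the unvernalized apex. Before the cold 46.1% had been called in the bud only, 16.9% in both tissues, 7.45% in the apex only and 29.5% in neither. A total of 13474 bud-side ACRs (23.8%) were in no other list of the series. The share with a history in the unvernalized bud was 53.8% for bud-side ACRs of 201 to 300 bp and 83.2% for those over 1 kb.

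Fewer apex-side ACRs had been called before the cold. The share was 37.5% in the unvernalized bud (36.9 to 38.0) and 13.0% in the unvernalized apex (12.7 to 13.5), beside 82.0% in the unvernalized bud and 55.8% in the unvernalized apex for all vernalized apex ACRs. The higher share in the bud was thus found over the whole list and is not particular to the apex-side ACRs. The unvernalized bud list covered 169.2 Mb and the unvernalized apex list 88.5 Mb. Before the cold 31.4% had been called in the bud only, 6.07% in both tissues, 6.98% in the apex only and 55.6% in neither. A total of 13268 (48.7%) were in no other list of the series. The share was higher in the unvernalized bud in each of the 6 width classes, with 54.2% in the unvernalized bud and 28.8% in the unvernalized apex for apex-side ACRs over 1 kb. The order was not kept when 2 ACRs had to cover at least 50% of each other to be shared, since the shares were then 18.6% in the unvernalized bud and 19.4% in the unvernalized apex.

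**Figure D4:**
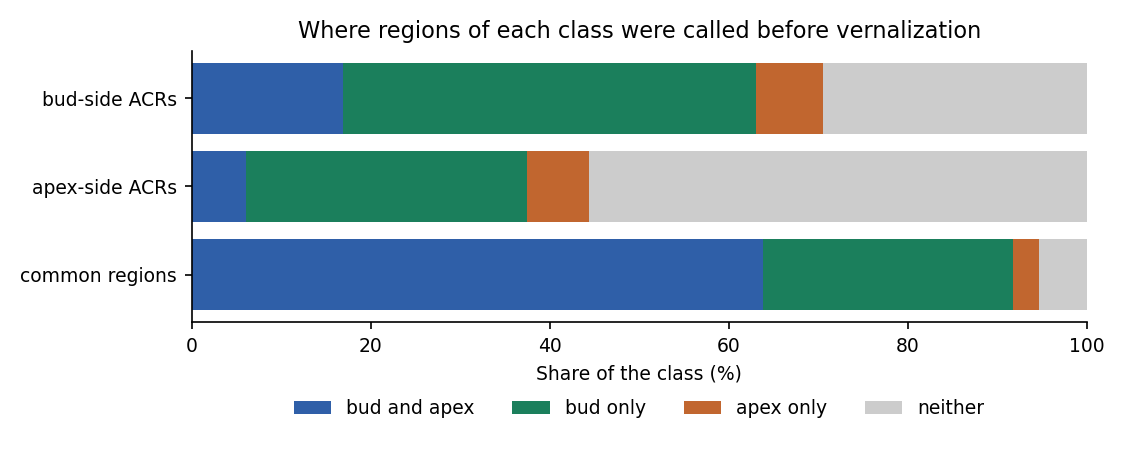
Share (%) of bud-side ACRs, apex-side ACRs and common regions that overlapped ACRs of both unvernalized shoot lists, of the bud only, of the apex only, or of neither. Bud only takes 46.1% of bud-side and 31.4% of apex-side ACRs, apex only takes 7.45% of bud-side and 6.98% of apex-side ACRs, and neither takes 29.5% of bud-side and 55.6% of apex-side ACRs.

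Position and history went together in the side classes too. Bud-side ACRs overlapped the unvernalized bud in 50.9% of cases in the outer zone and in 70.8% inside it. Apex-side ACRs overlapped the unvernalized apex in 16.6% of cases in the outer zone and in 10.5% inside it, and the unvernalized bud in 28.1% in the outer zone and in 44.3% inside it. Bud-side ACRs called in the apex only before the cold were 65.7% outer, and apex-side ACRs with that history were 62.8% outer. Those called in the bud only before were 27.6% outer when bud-side and 29.3% outer when apex-side. ACRs of equal history thus lay alike in both side classes. Over all unvernalized ACRs the outer share was 27.8% for bud only and 60.3% for apex only.

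The leaf lists held fewer of the side ACRs than of the common regions. At least 1 of the 2 leaf lists overlapped 34.2% of bud-side ACRs, 18.3% of apex-side ACRs and 67.0% of common regions. The unvernalized leaf overlapped 26.7% of bud-side and 12.1% of apex-side ACRs, beside 49.8% of all vernalized bud and 51.5% of all vernalized apex ACRs. For the vernalized leaf the shares were 18.8% and 11.9%, beside 34.0% and 34.8%. Common regions were also wider, with a median of 856 bp, and the part of width in these shares was not tested.

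Followed forward, most regions shared before the cold were shared after it. Of 83559 regions common to bud and apex before vernalization, 85.5% were common after it, 9.81% were called in the bud only, 1.48% in the apex only and 3.19% in neither. Of 90008 ACRs called in the bud only before, 34.4% were common after, 24.2% bud only, 7.56% apex only and 33.8% in neither. Of 31136 ACRs called in the apex only before, 13.2% were common after, 16.4% bud only, 7.11% apex only and 63.3% in neither. Among ACRs called in the apex only before, bud only was 2.31 times as frequent after as apex only, close to the ratio of 2.08 between all bud-side and apex-side ACRs. Among ACRs called in the bud only before, it was 3.20 times as frequent.

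Single sites show the classes at base level. Sites were taken by width and isolation, and coordinates are 1-based in IWGSC RefSeq v1.0. No gene annotation of this build was used, so the genes around the sites are not given. The widest bud-side ACRs with no vernalized apex ACR within 10 kb were chr6B:116352-120401 and chr6B:110586-114035, both at the very end of the chromosome, and chr5B:398347452-398350401, near its middle. The first, 4050 bp wide, lay 52.7 kb from the nearest vernalized apex ACR, and 3806 bp of it were covered in the unvernalized apex. The second, 3450 bp wide, had 3044 bp covered in the unvernalized apex. Neither had any covered base in the unvernalized bud or in the leaf lists. The 5B site, 2950 bp wide, had 250 bp covered in the unvernalized bud, 226 bp in the unvernalized apex, 0 bp in the vernalized leaf and 498 bp in the unvernalized leaf.

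The widest apex-side ACRs with no vernalized bud ACR within 10 kb were chr2A:771189619-771192268, chr2B:657855375-657857424 and chr3A:742272283-742274223. The 2A site, 2650 bp wide, was covered over 2650 bp in the unvernalized bud and over 1219 bp in the unvernalized apex. The 2B site, 2050 bp wide, was covered over 600 bp in the unvernalized bud, 1330 bp in the unvernalized apex, 1028 bp in the vernalized leaf and 640 bp in the unvernalized leaf. The 3A site, 1941 bp wide, was covered in none of the 5 other lists.

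The widest common regions were covered in every list. The region chr3B:793019703-793042299 of 22597 bp had 22540 bp covered in the vernalized bud and 19450 bp in the vernalized apex, and between 17021 bp (vernalized leaf) and 22365 bp (unvernalized apex) in the others. The region chr4A:6913475-6933535 of 20061 bp had 20050 bp covered in the vernalized bud and 18250 bp in the vernalized apex, but 5232 bp in the vernalized leaf. The region chr2A:12159600-12178742 had its full 19143 bp covered in the vernalized bud and 18100 bp in the vernalized apex, with 11011 bp in the vernalized leaf.

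The longest run of bud-side ACRs lay at chr5B:691414288-691455772, where 17 ACRs stood in the vernalized bud and none in the vernalized apex. The unvernalized bud had none there and the unvernalized apex 27, while the vernalized leaf had 25 and the unvernalized leaf 17. The next longest, chr1A:14498697-15441473, held 16 vernalized bud ACRs, 6 of the unvernalized bud and 2 of the unvernalized apex. The 2 longest runs thus had opposite histories.

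The longest runs of apex-side ACRs, 13 each, lay at chr2B:688435432-689484870 and chr6B:9251478-9796923. The 2B run had 16 ACRs in the unvernalized bud and 7 in the unvernalized apex, and the 6B run had 12 in the unvernalized bud and none in the unvernalized apex. All 116 bud-side ACRs in runs of at least 10 lay in the outer zone, and 14.7% of them overlapped the unvernalized bud and 56.0% the unvernalized apex. The 46 apex-side ACRs in runs of at least 10 overlapped the unvernalized bud in 63.0% of cases and the unvernalized apex in 10.9%. In the 533 bud-side runs of at least 5, the unvernalized bud overlapped more of the ACRs in 395 and the unvernalized apex in 85, so the 9 longest did not stand for the rest. This count was added after the longest runs had been seen.

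The 1 Mb windows with the largest excess of bud-side over apex-side ACRs were chr5B:691000001-692000000 and chr6D:3000001-4000000. The 5B window held 50 ACRs in the vernalized bud and 10 in the vernalized apex, against 7 in the unvernalized bud and 137 in the unvernalized apex. The 6D window held 80 in the vernalized bud and 44 in the vernalized apex, against 42 in the unvernalized bud and 97 in the unvernalized apex. The windows with the largest excess of apex-side ACRs were chr6B:20000001-21000000 and chr1D:203000001-204000000. The 6B window held 24 ACRs in the vernalized bud and 44 in the vernalized apex, against 39 in the unvernalized bud and 28 in the unvernalized apex. The 1D window held 22 in the vernalized bud and 38 in the vernalized apex, against 34 in the unvernalized bud and 20 in the unvernalized apex. In these 4 windows the tissue with more ACRs after the cold was the one with fewer before it.

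**Figure D5:**
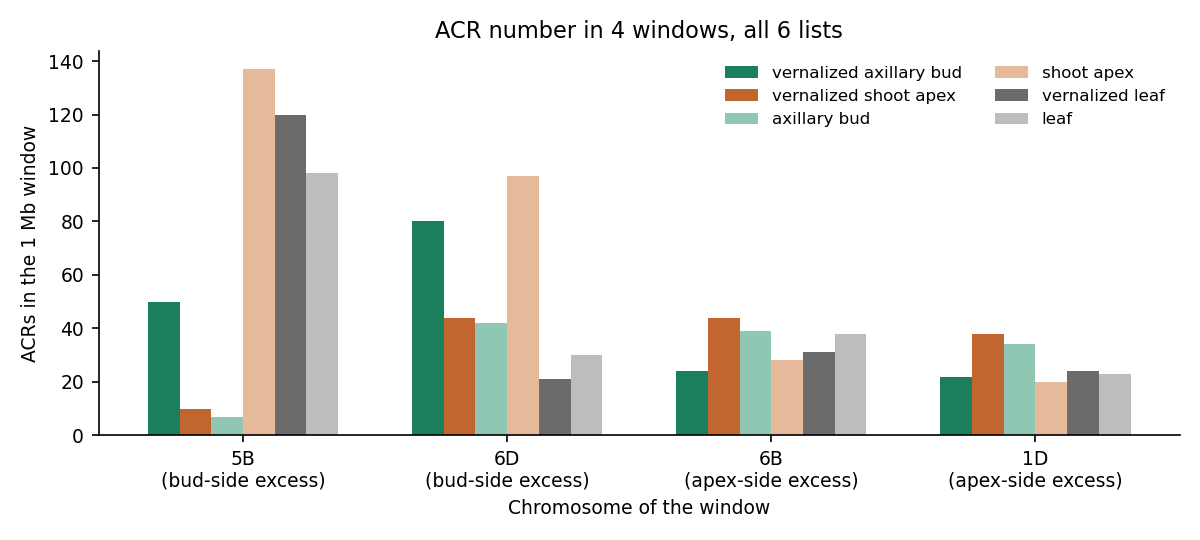
Number of ACRs in the 4 windows of 1 Mb with the largest excess of bud-side (5B and 6D) or apex-side ACRs (6B and 1D), with 1 bar for each of the 6 lists. In the 5B window the bars stand at 50 for vernalized bud, 10 for vernalized apex, 7 for unvernalized bud and 137 for unvernalized apex, and in all 4 windows the order of bud and apex differs before and after vernalization.

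The same was looked at in more windows after these 4 had been seen. In the 50 windows with the largest bud-side excess, at least 18 ACRs each, the vernalized bud had 3126 ACRs and the vernalized apex 2291, and the unvernalized bud had 2400 and the unvernalized apex 3080. The unvernalized apex had more ACRs than the unvernalized bud in 36 of these 50 windows, beside 15.0% of all windows and 39.1% of windows in the outer zone. Of the 50, 46 were in the outer zone. In the 50 windows with the largest apex-side excess, at least 7 ACRs each, the unvernalized bud had more ACRs than the unvernalized apex in 34 (68%). This was so in 72.9% of all windows and in 51.7% of windows in the outer zone, where 32 of these 50 lay. For the bud-side excess the reversal was thus more frequent than in all windows and than in outer windows. For the apex-side excess it was less frequent than in all windows and more frequent than in outer windows. These are raw numbers from lists of unequal length. As a share of each list's total, bud minus apex changed sign across the cold in 43 of the 50 bud-side windows. In the 50 apex-side windows it kept its sign in 32 and changed it in 18. Over all 14074 windows it kept its sign in 7809 and changed it in 5456. In the 50 windows with the largest such difference after the cold it kept its sign in 36.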

How the data were processed

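ATAC-seq was done on dissected wheat tissue. As the methods and the submitters' processing notes give it, the authors trimmed reads with fastp 0.21.0, aligned them to IWGSC RefSeq v1.0 with Bowtie2 2.3.5.1, filtered with SAMtools 1.3.1 and Picard 2.16.0, and called peaks with MACS2 2.2.6. They kept 150 bp bins, placed every 100 bp, that had enough transposase cuts, merged nearby bins with bedtools and removed those that overlapped input or chloroplast peaks, so library depth can change ACR number and width. The deposited lists have 3 columns (chromosome, start, end) with no score or signal, so the depth behind an ACR is not known from them. Groups came from the sample labels, and input was not used here.

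Overlap, merged regions, runs and windows were computed with Python 3.11.15, numpy 2.4.6, pandas 2.3.3 and scipy 1.17.1, and figures drawn with matplotlib 3.10.9. The functions were tested on simulated data. No ACR was removed, and chromosome length was the end of the last ACR in any list. Position was that of the ACR midpoint. Shares have 95% Wilson intervals. With 1 list per group no test was run.

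Sites named were the 3 widest bud-side and apex-side ACRs with no ACR of the other vernalized list within 10 kb, the 3 widest common regions, the 2 longest runs of each side class, and the 2 windows of 1 Mb with the largest excess each way. Alternatives were other overlap rules, joined, wide or fixed-width ACRs, lists of equal length, other zone and neighbour limits, and leaving out chromosome 1B. The comparison and these lists were chosen with earlier results of these data known.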

Additional observations from a re-analysis of the deposited data

Results flagged for a closer look

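The change across the cold differed in direction between the bud and the apex in 3 measures, none of which could be tested with 1 list per group. The outer share was 4.57 percentage points higher in the vernalized than in the unvernalized bud list, and -5.95 points (vernalized minus unvernalized) in the apex, each on 21 of 21 chromosomes. The number of ACRs changed by -0.860% in the bud and by 16.5% in the apex. The median width changed by -100 bp in the bud and by 17 bp in the apex. Widths of whole bins made up 95.6% of the vernalized and 94.6% of the unvernalized bud list, and 77.6% of the vernalized and 12.9% of the unvernalized apex list. Their part in these differences was not tested.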

How the results depend on the processing

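No paired analysis was possible because each group has 1 list and no result comes from a test. Of 92 alternative values over 20 results, 23 stayed near the reported value, 68 differed from it by more than the counting error or 1.5 times, and 1 changed sign. Other zone and neighbour limits measure another quantity and were bound to differ, so these counts do not measure robustness. For the Jaccard index the counting error was only approximated, as that of a share of merged regions. For its difference across the cold the error of the vernalized index alone was used. Alternatives on bin widths, on 4 lists of equal length, on the 2 slopes along the chromosome, on the Jaccard difference and on the overlap of apex-side ACRs with the unvernalized bud were chosen after seeing the data. The causes were not tested. Chromosome 1B stands for leaving out a part of the data, since no list could be left out.

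When sharing needed a mutual cover of at least 50%, there were 90797 bud-side and 71347 apex-side ACRs. The common share was then 47.8% of the bud list and 53.9% of the apex list, the median width 450 bp for bud-side and 350 bp for apex-side ACRs, and the D share 34.7% for bud-side and 35.3% for apex-side ACRs. The outer share of bud-side ACRs was 39.8%. A neighbour within 10 kb was found for 64.3% of bud-side and 62.9% of apex-side ACRs. The unvernalized bud held 43.7% of bud-side ACRs, and apex-side ACRs were found in the unvernalized bud in 18.6% and in the unvernalized apex in 19.4%. When at least 50% of the ACR itself had to be covered, the common share was 56.1% for bud and 77.2% for apex. With gaps up to 200 bp allowed it was 68.9% for bud and 83.9% for apex, and 27.1% of common regions were bud only before.

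With ACRs of at least 500 bp, there were 31365 bud-side and 11843 apex-side ACRs, the common share was 64.8% for bud and 83.8% for apex, and the Jaccard index 0.509. The D share of bud-side ACRs was 34.8%, the outer share of apex-side ACRs 41.3%, and the clustered share 35.9% for bud-side and 17.4% for apex-side ACRs. The unvernalized bud held 71.8% of bud-side and 48.0% of apex-side ACRs. The Jaccard difference across the cold was 0.165, and the slope of the bud common share (ends minus centre) 6.25 points after and 30.3 points before vernalization.

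With ACRs up to 1 kb apart joined, 34435 ACRs were bud-side, the common share was 73.7% for bud and 84.4% for apex, and the Jaccard index 0.551. The unvernalized bud held 63.7% of bud-side and 36.4% of apex-side ACRs, the unvernalized apex held 11.7% of apex-side ACRs, and 25.8% of common regions were bud only before. With a fixed 250 bp, 62999 ACRs were apex-side, the common share was 52.6% for bud and 59.3% for apex, the Jaccard index 0.224 and its difference 0.0990. The slope was then -3.76 points after and 17.0 points before vernalization, so the slope after vernalization was turned round.

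With the bud list reduced to the length of the apex list, the common share was 71.5% for bud and 78.3% for apex, the D share of bud-side ACRs 33.8%, and the clustered share 45.0% for bud-side and 36.0% for apex-side ACRs. With 4 lists of equal length, apex-side ACRs were found in the unvernalized bud in 35.8% and in the unvernalized apex in 18.8%, the Jaccard difference was 0.151, and the slope before vernalization 27.8 points. With whole-bin widths only, the common share was 54.7% for bud and 81.3% for apex. Without 1B the D share was 35.3% for bud-side and 35.9% for apex-side ACRs. With an outer zone of 5% at each end the outer share was 23.2% for bud-side and 24.4% for apex-side ACRs, and with 20% it was 60.3% for bud-side and 65.9% for apex-side ACRs. A neighbour within 2 kb was found for 25.4% of bud-side and 15.4% of apex-side ACRs, and within 50 kb for 68.1% of bud-side and 49.3% of apex-side ACRs.

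In each setting run for both, bud-side ACRs outnumbered apex-side ACRs and the common share was higher in the apex list. Depth was not given by the lists, so how far it sets these differences was not tested.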
